A study of Homo sapiens
Mus musculus with 25 samples.

Results

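Eph receptors form the largest family of receptor tyrosine kinases, and ephrins are their ligands. Because ephrins are bound to the membrane, the pair signals where cells touch, forward into the cell with the receptor and in reverse into the cell with the ligand, and commonly drives repulsion or sorting of neighbouring cells. Class A receptors mainly bind the lipid-anchored ephrin-A ligands and class B receptors the transmembrane ephrin-B ligands, with EPHA4 able to bind both. In the intestinal crypt, EPHB2 and EPHB3 are Wnt target genes of the proliferative compartment, and their ligands ephrin-B1 and ephrin-B2 are found on differentiated cells. PTPRK, a receptor tyrosine phosphatase of cell contacts, acts on phosphotyrosine, and several Eph receptors and ephrins carry tyrosine sites that the study measured. The values here are their mRNA levels. They concern 6 receptors (EPHA1, EPHA2, EPHA4, EPHB2, EPHB3 and EPHB4) and 4 ligands (EFNA1, EFNA4, EFNB1 and EFNB2), taken by gene symbol from the 38128 genes of the count table. All 10 had enough reads to be tested, among 18823 tested genes.

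RNA was sequenced from HT29 tumours in nude mice given doxycycline. HT29 is an established cell line from a human colorectal cancer. The groups were 5 WT tumours, 5 PTPRK KO tumours with inducible tGFP, and PTPRK KO tumours with inducible PTPRK (6 tumours), PTPRK.RQ (R1095Q, 4 tumours) or PTPRK.C1089S (5 tumours). R1095Q and C1089S both change the catalytic motif of the phosphatase. They are not alike in the study's pull-downs. C1089S bound known substrates more than the wild-type domain did, while R1095Q did not seem to trap them. PTPRK KO cells were a sorted pool rather than 1 clone, inducible constructs came by lentivirus with tGFP as the sorting marker, and the study describes patchy tGFP in re-expressing tumours. The study's methods do not describe PTPRK.C1089S xenografts. For the other groups those methods give each animal a single injection, so their tumours came from separate mice, and the sources used here do not say so for PTPRK.C1089S. Tumours of a group grew from the same line of cells, so p-values measure the spread between tumours of that line.

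The tumours had 43.7 to 59.4 M counts each, and each level below is in counts per 1 M counts (CPM) scaled by TMM, a factor for differences in composition. PTPRK itself averaged 315 CPM in WT and 45.2 in PTPRK KO tumours. With the constructs it averaged 1852 CPM (PTPRK), 1298 (PTPRK.RQ) and 1506 (PTPRK.C1089S), and all PTPRK KO tumours, at 28.0 to 75.8 CPM, lay below all others. All 10 markers of colonic epithelium were present in every tumour. Of 20 markers of host fibroblasts, vessels and leukocytes, 10 passed the filter on low counts. LYZ (2171 to 3104 CPM) and CD68 (36.2 to 60.4 CPM) made up most of their sum, the other 18 together reached 8.93 to 31.2 CPM, and the endothelial receptor KDR and the collagen COL1A2 had no read in 24 of 25 tumours. Among the leukocyte markers, PTPRC and CSF1R reached at most 0.30 CPM, AIF1 had no read in 18 tumours and CD3E none in 23. Which cells the LYZ and CD68 reads came from was not tested. The counts are of human genes and the host is a mouse. Host cells reach these rows only through mouse reads that map to human genes, so the rows do not measure host content.

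EPHB4, EFNB1 and EPHB3 were the members with the clearest differences between groups, and in each the tumours re-expressing PTPRK had the lowest mean. For EPHB4 the mean of PTPRK.RQ tumours was as low (234.5 CPM, beside 233.7 CPM in PTPRK). For EPHB3 that of PTPRK.C1089S tumours was (53.4 CPM, beside 53.2 CPM in PTPRK). EPHA4, a receptor of low abundance here, was highest in PTPRK.RQ tumours. Across all 5 groups these 4 of 10 members differed in edgeR's quasi-likelihood test, adjusted over all tested genes by the Benjamini-Hochberg method (adjusted p = 0.0017 for EPHB4, 0.0036 for EFNB1, 0.0073 for EPHB3 and 0.0084 for EPHA4), where 47.0% of all tested genes did. The other 6 did not pass, with adjusted p-values from 0.098 for EPHA2 to 0.65 for EFNA1. In bulk tumours, fewer cells that carry a transcript and less of it per cell cannot be told apart.

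**Figure D1:**
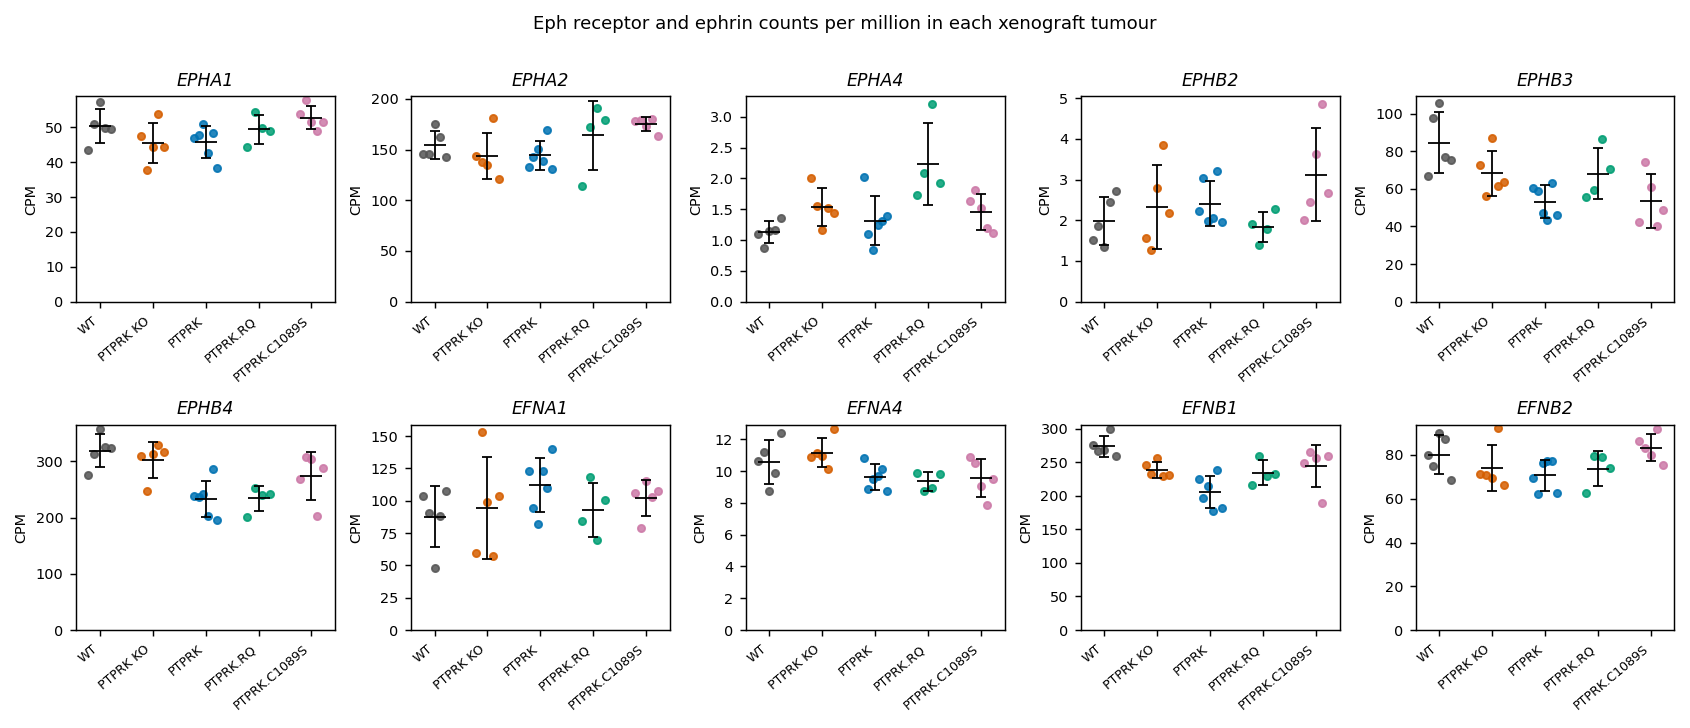
CPM (vertical axes, from 0) of the 6 receptors and 4 ligands by group, with 1 point per tumour and the mean ± SD in black. The means of EPHB4, EFNB1 and EPHB3 are lowest in PTPRK tumours, with PTPRK.RQ as low for EPHB4 and PTPRK.C1089S as low for EPHB3. The 4 PTPRK.RQ tumours lie above all 5 WT tumours for EPHA4.

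The first question of the design is what loss of PTPRK changed. The label of WT tumours names no construct, while PTPRK KO cells were edited, sorted and carried the tGFP vector. In comparisons with WT, PTPRK cannot be told apart from these steps. In PTPRK KO against WT tumours no member was called at an adjusted p of 0.05 by edgeR, and 2.0% of all tested genes were. DESeq2 called none of the 10 either, and 1 member, EFNB1, had an unadjusted p under 0.05. For counts at an unadjusted p, here and below, the share of all tested genes was not taken. No excess is read from them. EFNB1 was also the 1 member whose groups did not overlap, which held for 5.82% of genes. The median log2 fold change of the members was -0.09, beside 0.01 for all tested genes.

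The second question is what returned with PTPRK or with a mutant. In PTPRK against PTPRK KO tumours 2 members were called, both lower (EPHB4 and EFNB1), where 28.6% of genes were called and 14.5% were lower. For PTPRK.RQ against PTPRK KO tumours 1 member, EPHB4, was called, where 19.1% of genes were called and 9.68%, like EPHB4, were lower. Groups did not overlap for 1 member, EFNA4, against 15.3% of genes. In PTPRK.C1089S against PTPRK KO tumours edgeR and DESeq2 called no member, where edgeR called 16.2% of genes at the adjusted threshold. An unadjusted p under 0.05, for which no share of all genes was taken, was found for 4 members. The members' medians in these comparisons were -0.14, -0.01 and 0.07 (log2), and those of all tested genes 0.02, 0.03 and 0.00. All 3 comparisons share the PTPRK KO tumours.

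The constructs were then compared with each other. EPHA4 was called higher in PTPRK.RQ than in PTPRK tumours, with 3.38% of genes called and 1.54% higher. EFNB1 was called higher in PTPRK.C1089S than in PTPRK tumours, with 13.2% of genes called and 7.49% higher. Between PTPRK.C1089S and PTPRK.RQ tumours edgeR and DESeq2 called no member, 4.93% of genes were called by edgeR, and 2 members had an unadjusted p under 0.05.

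Comparisons with WT tumours, which share those tumours, gave more calls. In PTPRK against WT tumours 3 members were called, all lower (EPHB3, EPHB4 and EFNB1), where 35.7% of genes were called and 18.1% were lower. EPHB3 and EFNB1 did not overlap between these groups, nor did 19.2% of genes. In PTPRK.RQ against WT tumours EPHA4 was called higher and EPHB4 lower, with 24.7% of genes called, 12.3% higher and 12.4% lower. Both did not overlap, against 21.1% of genes. In PTPRK.C1089S against WT tumours EPHB3 was called lower, with 14.3% of genes called and 6.93% lower.

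**Figure D2:**
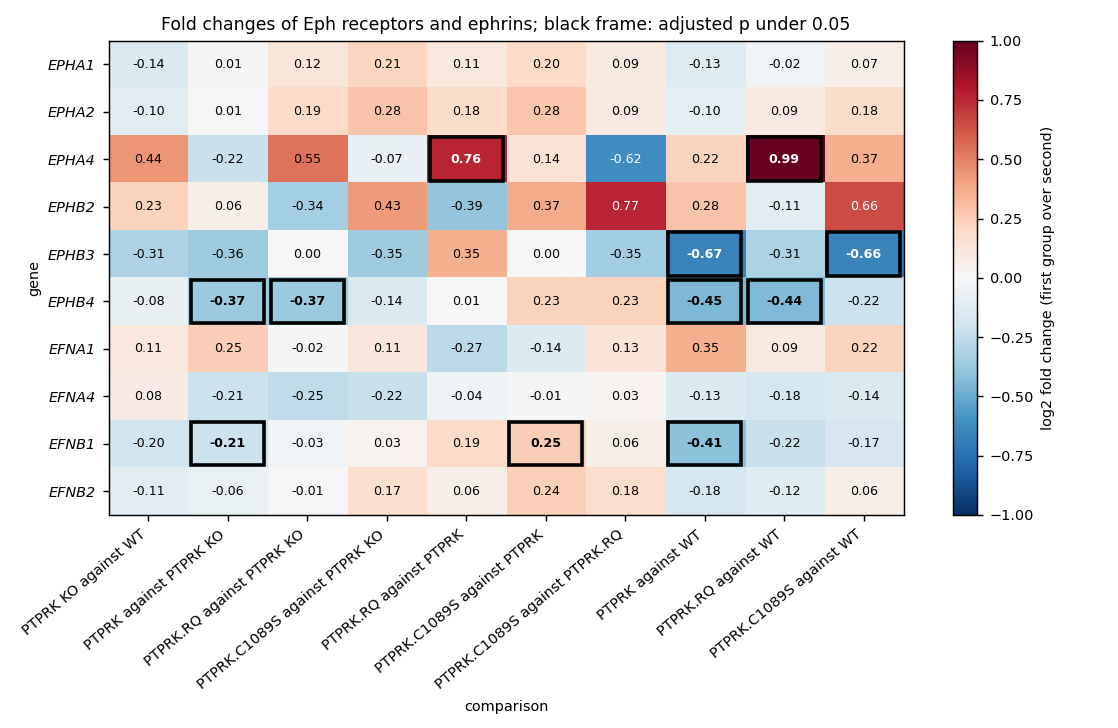
Log2 fold change of each member (rows) in each of 10 comparisons (columns), first group over second, with red for higher and blue for lower. Black frames mark the 11 values with an adjusted p under 0.05 by edgeR over all tested genes, which lie in the rows of EPHA4, EPHB3, EPHB4 and EFNB1.

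Among class A receptors, EPHA4 (chromosome 2, 221418027 to 221574202, minus strand, GRCh38) had few reads, between 36 and 171 per tumour. Its levels were 1.09, 0.865, 1.15, 1.17 and 1.36 CPM in WT tumours and 1.73, 2.08, 3.21 and 1.93 CPM in PTPRK.RQ tumours. Every PTPRK.RQ tumour was above every WT tumour, and the log2 fold change was 0.99 ± 0.23 (SE, adjusted p = 0.0029 by edgeR). PTPRK tumours ranged from 0.830 to 2.03 CPM with a median of 1.28 CPM. The highest of these overlapped with the lower PTPRK.RQ tumours, and PTPRK.RQ differed from PTPRK by 0.76 ± 0.22 on the log2 scale (adjusted p = 0.044). That call was made in 14 of 32 alternative fits, and without PTPRK.RQ replicate 3, which had 3.21 CPM, its adjusted p was 0.21.

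PTPRK KO tumours had 2.01, 1.56, 1.16, 1.51 and 1.43 CPM of EPHA4, and PTPRK.C1089S tumours 1.63, 1.81, 1.52, 1.20 and 1.12 CPM. Both groups lay between WT and PTPRK.RQ in their means. On the log2 scale PTPRK.RQ differed from PTPRK KO tumours by 0.55 ± 0.22 (adjusted p = 0.087), PTPRK KO from WT by 0.44 ± 0.22 (adjusted p = 0.37) and PTPRK.C1089S from PTPRK.RQ by -0.62 ± 0.22 (adjusted p = 0.10), none of which passed. In order of the mean, EPHA4 went from WT through PTPRK, PTPRK.C1089S and PTPRK KO to PTPRK.RQ, and no 2 neighbours in that order differed beyond the threshold.

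EPHA2, the main class A receptor of many epithelial cancers (chromosome 1, 16124337 to 16156069, minus strand), ranged from 114 to 191 CPM over all tumours. Its means were 144 CPM in both PTPRK KO and PTPRK tumours, 154 in WT, 164 in PTPRK.RQ and 175 in PTPRK.C1089S. The 5 PTPRK.C1089S tumours were close together, between 163 and 180.1 CPM, while PTPRK KO replicate 4 reached 181 CPM and PTPRK.RQ replicate 1 had 114 CPM. PTPRK.C1089S tumours had a log2 fold change of 0.28 ± 0.11 against PTPRK KO (adjusted p = 0.073) and of 0.28 ± 0.10 against PTPRK tumours (adjusted p = 0.068), so neither passed. Without PTPRK KO replicate 4, the first of these was 0.38 with an adjusted p of 0.011. PTPRK.RQ against PTPRK KO gave 0.19 and was not called. Leaving out the low PTPRK.RQ replicate 1 raised this to 0.34 (adjusted p = 0.024).

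EPHA1, an epithelial receptor (chromosome 7, 143390289 to 143408856, minus strand), was the steadier of the class A receptors, with 37.9 to 57.9 CPM over the 25 tumours and group means between 45.5 and 52.7 CPM. The highest mean was again in PTPRK.C1089S tumours. Their log2 fold change was 0.21 ± 0.09 against PTPRK KO (adjusted p = 0.10) and 0.20 ± 0.08 against PTPRK tumours (adjusted p = 0.10). EPHA1 overlaps with ZYX on the other strand, which had 6711 to 12839 reads per tumour, and counting did not use strand, so reads in their overlap cannot be assigned to 1 of them.

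Among class B receptors, EPHB4, the receptor of ephrin-B2 (chromosome 7, 100802565 to 100827523, minus strand), was counted most, with 9027 to 18921 reads per tumour. It had 276, 313, 357, 326 and 325 CPM in WT tumours and 309, 247, 312, 329 and 317 CPM in PTPRK KO tumours. These groups overlapped throughout, apart from the low PTPRK KO replicate 2, and their log2 fold change was -0.08 ± 0.11 (95% interval -0.28 to 0.13).

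With PTPRK re-expressed, EPHB4 ranged from 195 to 286 CPM with a median of 238 CPM, and PTPRK.RQ tumours had 202, 253, 241 and 242 CPM. All of these tumours lay below 4 of the 5 PTPRK KO tumours. Against PTPRK KO, the log2 fold change was -0.37 ± 0.10 for PTPRK (adjusted p = 0.0073) and -0.37 ± 0.11 for PTPRK.RQ (adjusted p = 0.021), a mean level of 0.771 and 0.774 times that of PTPRK KO. Against WT, the log2 fold changes were -0.45 ± 0.10 (adjusted p = 0.0015) and -0.44 ± 0.11 (adjusted p = 0.0061). Both re-expressing groups were therefore below WT as well as below PTPRK KO. Without PTPRK.RQ replicate 1, the value against PTPRK KO was -0.30 with an adjusted p of 0.10.

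PTPRK.C1089S tumours were spread, with 269, 308, 304, 203 and 288 CPM of EPHB4. Replicate 4 was among the lowest of all tumours and the other 4 were in the range of PTPRK KO. Their log2 fold change against PTPRK KO was -0.14 ± 0.11 (adjusted p = 0.42). In order of the mean, EPHB4 went from PTPRK through PTPRK.RQ, PTPRK.C1089S and PTPRK KO to WT, and again no 2 neighbours differed beyond the threshold.

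EPHB3, a Wnt-responsive receptor of the crypt base (chromosome 3, 184561785 to 184582408, plus strand), had 67.0, 97.8, 106, 76.9 and 75.3 CPM in WT tumours. PTPRK tumours had 43.6 to 63.2 CPM with a median of 53.1 CPM, so that all 6 lay below all 5 WT tumours. On the log2 scale the difference was -0.67 ± 0.16 (adjusted p = 0.0029). PTPRK.C1089S tumours had 42.6, 74.3, 61.2, 40.02 and 48.9 CPM, of which replicate 2 overlapped with WT. Their log2 fold change against WT was -0.66 ± 0.17 (adjusted p = 0.00997), with a call in all 32 alternative fits.

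PTPRK KO tumours had 72.9, 55.9, 86.9, 61.7 and 63.5 CPM of EPHB3, and PTPRK.RQ tumours 55.9, 59.4, 86.2 and 70.4 CPM. The means of these groups, 68.2 and 68.0 CPM, lay between WT and the other constructs, and their tumours overlapped with all other groups. PTPRK KO against WT gave -0.31 ± 0.17 (adjusted p = 0.42), PTPRK against PTPRK KO gave -0.36 ± 0.16 (adjusted p = 0.098), and PTPRK.C1089S against PTPRK KO gave -0.35 ± 0.17 (adjusted p = 0.17, all on the log2 scale). None of these passed, and without PTPRK.C1089S replicate 2 the last was -0.49 with an adjusted p of 0.041.

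EPHB2, its partner receptor in the crypt (chromosome 1, 22710839 to 22921500, plus strand), was scarce in HT29 tumours, with 1.27 to 4.86 CPM. PTPRK.C1089S tumours had the highest mean, 3.12 CPM, and PTPRK.RQ tumours the lowest, 1.83 CPM. Between them the log2 fold change was 0.77 ± 0.28 (adjusted p = 0.11), and that of PTPRK.C1089S against WT was 0.66 ± 0.26 (adjusted p = 0.095). In both comparisons the groups overlapped.

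Of the class A ligands, EFNA1 (chromosome 1, 155127876 to 155134899, plus strand) varied most between tumours of 1 group. PTPRK KO tumours alone ran from 57.0 to 154 CPM, and the 25 tumours from 48.1 to 154 CPM. Group means ran from 87.7 CPM in WT to 112 CPM in PTPRK tumours, a log2 fold change of 0.35 ± 0.23 (adjusted p = 0.24, 95% interval -0.10 to 0.81). EFNA1 was not called in any of the 10 comparisons, and its intervals were wide.

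EFNA4 (chromosome 1, 155063737 to 155069553, plus strand) lies close to EFNA1 and had 7.84 to 12.7 CPM. PTPRK KO tumours had 10.9, 11.2, 10.9, 10.2 and 12.7 CPM, and PTPRK.RQ tumours 9.89, 8.74, 8.96 and 9.84 CPM. All PTPRK.RQ tumours lay below all PTPRK KO tumours, but the log2 fold change, -0.25 ± 0.11 (adjusted p = 0.097), did not pass, nor did that of PTPRK against PTPRK KO, -0.21 ± 0.10 (adjusted p = 0.096). A gene listed as AL691442.1 overlaps with EFNA4 on the same strand and had 162 to 384 reads per tumour, so the assignment of shared reads is uncertain.

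Of the class B ligands, EFNB1 (chromosome X, 68829021 to 68842160, plus strand) had 275, 267, 268, 299.6 and 259 CPM in WT tumours and 245, 232, 256, 229 and 230.4 CPM in PTPRK KO tumours. Every PTPRK KO tumour was below every WT tumour. The log2 fold change was -0.20 ± 0.09 (adjusted p = 0.27 by edgeR), so it did not pass over all genes.

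In PTPRK tumours EFNB1 had 178 to 238 CPM with a median of 206 CPM, below all WT tumours. Against WT its log2 fold change was -0.41 ± 0.08 (adjusted p = 5.5e-04). Against PTPRK KO it was -0.21 ± 0.08 (adjusted p = 0.049), with overlapping tumours, and that call was made in only 7 of 32 alternative fits. Leaving out any 1 PTPRK KO tumour, among others, ended it, with adjusted p-values of up to 0.13 over all tumours left out in turn.

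PTPRK.RQ tumours had 216, 259, 229.6 and 232 CPM of EFNB1, and PTPRK.C1089S tumours 248, 266, 256, 189 and 259.9 CPM. PTPRK.C1089S replicate 4 fell among the PTPRK tumours and the other 4 lay above all of them. PTPRK.C1089S differed from PTPRK by 0.25 ± 0.08 on the log2 scale (adjusted p = 0.044), a call made in 18 of 32 alternative fits. That of PTPRK.RQ against WT was -0.22 ± 0.09 (adjusted p = 0.069).

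EFNB2, the ligand of EPHB4 (chromosome 13, 106489745 to 106535662, minus strand), was the steadiest member, with a highest level of 1.49 times the lowest over the 25 tumours (62.1 to 92.3 CPM). Its means ran from 70.8 CPM in PTPRK to 83.4 CPM in PTPRK.C1089S tumours. For PTPRK.C1089S the log2 fold change was 0.24 ± 0.09 against PTPRK (adjusted p = 0.075) and 0.17 ± 0.09 against PTPRK KO (adjusted p = 0.24). Without PTPRK KO replicate 4, which had 92.3 CPM, the second was 0.26 with an adjusted p of 0.041. An antisense gene, AL138689.2, overlaps with EFNB2 and had 1284 to 2142 reads per tumour.

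EPHB4 and EFNB1 also varied in step with many other genes. The first axis of variation between tumours of 1 group, computed from all tested genes but the members, held 18.6% of that variation, and a score on it was given to each tumour. Over the 25 tumours Pearson's r between log2 CPM and this score was -0.94 for EPHB4 (Spearman's rho -0.90, and -0.90 for r within groups) and -0.88 for EFNB1 (rho -0.80, and -0.86 within groups). Without the 2 tumours farthest from the median score, r was -0.92 and -0.83. EPHB3 had a weaker relation, with r = -0.59, and EPHA4 none to speak of, with r = 0.07.

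The score itself differed between groups. WT tumours had scores from -1.32 to -0.41 and PTPRK KO tumours from -1.03 to 0.31, while PTPRK tumours reached from -0.31 to 1.78 and PTPRK.RQ tumours from -0.47 to 1.19. PTPRK.C1089S replicate 4, with the lowest EPHB4 and EFNB1 of its group, had the highest score of all tumours, 1.87, and the others of its group had scores below 0. The score had an r of 0.69 with the TMM factor and of 0.25 with the share of mitochondrial reads. The axis and the group change between the same tumours and cannot be told apart in full.

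With the score as a term beside the group, an alternative added after the data were seen, EPHB4 gave -0.07 for PTPRK against PTPRK KO (adjusted p = 0.59) and -0.13 for PTPRK.RQ against PTPRK KO (adjusted p = 0.24). EFNB1 gave 0.07 for PTPRK.C1089S against PTPRK (adjusted p = 0.62). Against WT the values for PTPRK were -0.08 for EPHB4 (adjusted p = 0.65), -0.15 for EFNB1 (adjusted p = 0.29) and -0.32 for EPHB3 (adjusted p = 0.46). All calls of EPHB4 and EFNB1, and that of EPHB3 in PTPRK tumours, were lost in this fit. The calls of EPHA4 in PTPRK.RQ tumours stayed, with 1.13 against WT (adjusted p = 0.0086) and 0.74 against PTPRK (adjusted p = 0.036), as did that of EPHB3 in PTPRK.C1089S against WT (-0.55, adjusted p = 0.022). EPHA1 and EPHA2 were called higher in PTPRK.C1089S than in PTPRK KO tumours in this fit (0.26 with an adjusted p of 0.0077 and 0.31 with an adjusted p of 0.036), and EPHA1 was called higher in PTPRK.RQ than in PTPRK KO tumours (0.26, adjusted p = 0.028).

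**Figure D3:**
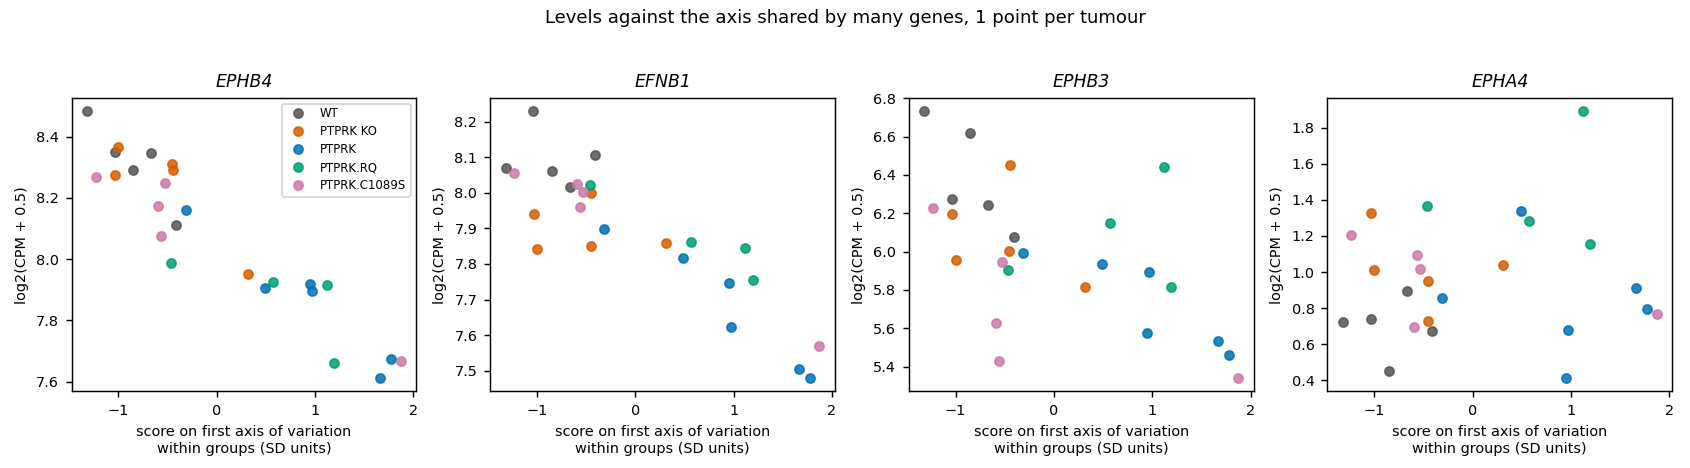
Log2(CPM + 0.5) of EPHB4, EFNB1, EPHB3 and EPHA4 (vertical axes) against the score on the first axis of variation within groups (horizontal axes, in SD units), with 1 point per tumour coloured by group. EPHB4 and EFNB1 fall along the axis, with r = -0.94 and -0.88, and EPHA4 shows no such slope, with r = 0.07.

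The genes most like EPHB4 over the 25 tumours, among tested genes with a mean log2 CPM above 2, were NOC2L (r = 0.97), UNC45A (0.96) and MLLT1 (0.96). For EFNB1 they were PEX10 (0.96), CTDSP1 (0.92) and BAIAP2-DT (0.92), and for EPHB3 HIRA (0.87), TUT1 (0.86) and C22orf39 (0.85). Of 18823 tested genes, 1149 had an r over 0.8 with EPHB4, 656 with EFNB1 and 19 with EPHB3. An r under -0.8 was found for 522, 318 and 16. These values describe tumours that share depth, composition and group. Among the 45 pairs of members, EPHB4 and EFNB1 had the highest r, 0.81 (0.76 within groups), and EPHA2 and EFNB2 followed with 0.80 (0.80 within groups).

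Genes around EPHB4 had lower medians as well, which was not particular to it. For the 50 tested genes nearest to it, the median log2 fold change against PTPRK KO was -0.18 for PTPRK and -0.19 for PTPRK.RQ. For PTPRK against WT it was -0.23. With the nearest 20 genes these medians were -0.21, -0.12 and -0.23. The 50 genes around EPHA2 had -0.21 for PTPRK against PTPRK KO, where EPHA2 itself gave 0.01. For PTPRK against WT those 50 genes had -0.19. Around EFNB1 and EPHB3 the medians in PTPRK against WT were 0.03 and 0.02 (for EPHB3 -0.18 with the nearest 20 genes), and around EPHA4 that in PTPRK.RQ against WT was -0.12. A gene on the other strand, SLC12A9, overlaps with EPHB4 and had 2551 to 4895 reads per tumour.

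Of the 12 other Eph and ephrin genes of the human genome, 5 passed the filter (EPHA10, EPHB6, EFNA2, EFNA3 and EFNA5). EPHA3, EPHA5, EPHA6 and EPHA7 had no read in any tumour, and EPHA8, EPHB1 and EFNB3 stayed at or under 0.23 CPM. EPHB6, a receptor without kinase activity, differed most. It had 20.4, 11.6, 18.1, 21.5 and 16.8 CPM in WT, and 11.0, 10.5, 11.6, 25.7 and 18.1 CPM in PTPRK KO tumours. PTPRK tumours had 17.8 to 21.2 CPM with a median of 19.4 CPM. PTPRK.RQ tumours had 28.3, 33.2, 25.5 and 30.6 CPM, and PTPRK.C1089S tumours 33.6, 25.7, 30.2, 33.8 and 36.3 CPM.

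Tumours with either catalytic mutant therefore lay above all WT and all PTPRK tumours for EPHB6, and overlapped with PTPRK KO through replicate 4 of that group. Such separation was common, with 21.1% of all tested genes not overlapping in PTPRK.RQ against WT. That share is not given here for the other comparisons of a mutant with WT or PTPRK. EPHB6 was called higher in PTPRK.RQ (0.94 ± 0.20, adjusted p = 0.0015) and in PTPRK.C1089S (1.05 ± 0.19, adjusted p = 3.3e-04) than in PTPRK KO, and higher than WT in both (0.73 ± 0.20, adjusted p = 0.0098, and 0.85 ± 0.19, adjusted p = 0.0034). These 4 calls were made in all 32 alternative fits. PTPRK.C1089S against PTPRK was called at 0.71 ± 0.18 (adjusted p = 0.014, and 0.11 with the axis term), while PTPRK.RQ against PTPRK, 0.59 ± 0.19, was not called by edgeR (adjusted p = 0.087) and was called by DESeq2.

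EFNA2, an ephrin-A ligand, had a mean of 45.4 ± 3.98 CPM (SD, n = 5) in WT, 31.6 ± 3.06 CPM (n = 6) in PTPRK and 36.2 ± 8.57 CPM (n = 5) in PTPRK.C1089S tumours. Its log2 fold change against WT was -0.52 ± 0.11 for PTPRK (adjusted p = 6.7e-04) and -0.33 ± 0.11 for PTPRK.C1089S (adjusted p = 0.048), and its r with the axis was -0.77. With the axis term, PTPRK against WT gave -0.19 (adjusted p = 0.36). EFNA5 had a mean of 20.7 CPM in PTPRK KO and was called higher in PTPRK (25.8 CPM, log2 fold change 0.32 ± 0.12, adjusted p = 0.040) and PTPRK.C1089S (27.1 CPM, 0.39 ± 0.12, adjusted p = 0.024). EPHA10, another receptor without kinase activity, was called lower in PTPRK.RQ (11.9 CPM) than in PTPRK KO (16.8 CPM, -0.50 ± 0.18, adjusted p = 0.048) and WT (17.1 CPM, -0.52 ± 0.18, adjusted p = 0.032). The calls of EFNA5, EPHA10 and EFNA2 in PTPRK.C1089S were each lost in some alternative fits.

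**Figure D4:**
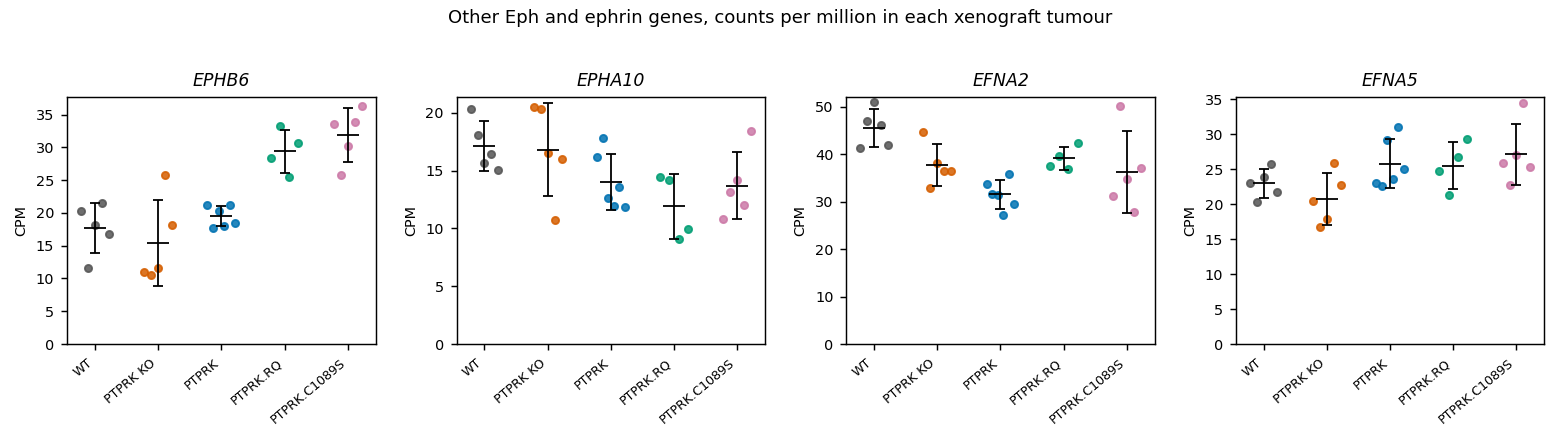
CPM (vertical axes, from 0) of EPHB6, EPHA10, EFNA2 and EFNA5 by group, with 1 point per tumour and the mean ± SD in black. For EPHB6 all PTPRK.RQ and PTPRK.C1089S tumours, from 25.5 to 36.3 CPM, lie above all WT and PTPRK tumours, and PTPRK KO replicate 4 reaches 25.7 CPM. In PTPRK.RQ against WT 21.1% of all tested genes did not overlap.

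Signalling partners of the family, a list of 48 adaptors, kinases, phosphatases, exchange factors and proteases of which 47 were tested, were called in both directions. In PTPRK KO against WT tumours 2 rose and 1 fell, so 3 of 47 were called, where 2.0% of all tested genes were. SDCBP (syntenin, a PDZ protein that binds ephrin-B tails) rose by 0.36 ± 0.09 (log2, adjusted p = 0.037) and LYN, a Src-family kinase, by 0.73 ± 0.19 (adjusted p = 0.042), while VAV3 fell by 1.48 ± 0.40 (adjusted p = 0.0498). These calls were made in 23, 21 and 11 of 32 alternative fits. In PTPRK against PTPRK KO 7 rose and 7 fell, so 14 of 47 were called beside 28.6% of all tested genes. The lowest p-values were those of VAV3 (3.24), the adaptor GRB10 (0.67) and the polarity protein PARD6B (0.46) among those that rose, and of VAV2 (-0.49), SDCBP (-0.39) and the signalling regulator RGS3 (-0.38) among those that fell, with adjusted p-values of 0.0018 or less.

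For PTPRK.RQ against PTPRK KO, 4 partners rose and 7 fell, 11 of 47 beside 19.1% of all tested genes. VAV3 (1.97), GRB10 (0.49) and the receptor phosphatase PTPRJ (0.30) led those that rose, and ANKS1A, an adaptor of Eph receptors (-0.51), SDCBP (-0.50) and the kinase FYN (-0.61) led those that fell. In PTPRK.C1089S against PTPRK KO 5 rose and 3 fell, 8 of 47 beside 16.2% of all tested genes. They were led by GRB10 (0.81), PARD6B (0.38) and the kinase ABL2 (0.34), and by LYN (-1.12), PTPRO (-1.75), a phosphatase known to act on Eph receptors, and SDCBP (-0.37). The median of the 47 was 0.01, 0.04 and 0.00 (log2) in these 3 comparisons, beside 0.02, 0.03 and 0.00 for all tested genes. SDCBP was thus higher in PTPRK KO than in WT and lower than PTPRK KO in each re-expressing group, comparisons that share the PTPRK KO tumours, and its mean was 201 CPM in WT, 258 in PTPRK KO, 196 in PTPRK, 183 in PTPRK.RQ and 201 in PTPRK.C1089S.

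Against WT, 10 partners rose and 11 fell in PTPRK tumours, 4 rose and 13 fell in PTPRK.RQ tumours, and 5 rose and 5 fell in PTPRK.C1089S tumours. These are 21, 17 and 10 of 47, beside 35.7%, 24.7% and 14.3% of all tested genes. Nothing particular to the partners is read from these counts. Those with the lowest p-values in PTPRK tumours were VAV3 (1.76), the GTPase CDC42 (0.29) and GRB10 (0.47), and VAV2 (-0.53), the kinase ABL1 (-0.32) and RGS3 (-0.42). In PTPRK.RQ tumours they were CDC42 (0.30), the phosphatase PTPN13 (1.09) and the adaptor NCK1 (0.31), and ANKS1A (-0.60), FYN (-0.64) and NCK2 (-0.40). In PTPRK.C1089S tumours they were GRB10 (0.61), CDC42 (0.34) and ABL2 (0.31), and PTPRO (-2.16), ANKS1A (-0.30) and ABL1 (-0.25). All values are log2 fold changes that passed the test. Of the 39 calls of named partners, 26 were made in all 32 alternative fits and 7 were lost with the axis term alone.

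EPHB2 and EPHB3 belong to the Wnt programme of the crypt, and 12 other genes of that programme were all tested. None was called in PTPRK KO against WT by edgeR or DESeq2, with 2 at an unadjusted p under 0.05. In PTPRK against PTPRK KO 1 rose, the adhesion receptor CD44 (0.41), and 4 fell, among them the transcription factor ASCL2 (-1.69) and the Wnt inhibitors NOTUM (3.89 to 1.95 CPM) and NKD1 (-0.93). For PTPRK.RQ, also against PTPRK KO, the counts were 1 and 4 again, with CD44 (0.47), ASCL2 (-1.85) and NOTUM (-1.16). In PTPRK.C1089S against PTPRK KO AXIN2, a negative feedback gene, rose (0.33), as did the receptor TNFRSF19 from near 0 (0.0408 to 0.993 CPM), and NOTUM fell (-0.75). The 12 genes thus gave 5, 5 and 3 calls in these comparisons, where 28.6%, 19.1% and 16.2% of all tested genes were called. Medians of the 12 genes were -0.12, -0.25 and 0.03 (log2). Of the 21 calls of named genes of this programme, 10 were made in all 32 alternative fits and 7 were lost with the axis term alone.

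Against WT, 2 genes of this programme rose and 5 fell in PTPRK tumours, with the stem cell receptor LGR5 (1.24) and CD44 (0.24) higher and MYC (-0.37), ASCL2 (-1.26) and NOTUM (-0.84) among those lower. In PTPRK.RQ tumours CD44 (0.29) rose and ASCL2 (-1.42), NOTUM (3.48 to 1.74 CPM) and the transcription factor SP5 (-0.58) fell. In PTPRK.C1089S tumours TNFRSF19 (0.123 to 0.993 CPM) rose and MYC (-0.38) fell. The 7, 4 and 2 calls stand beside 35.7%, 24.7% and 14.3% of all tested genes. EPHB3 was called lower in the first and the last of these comparisons, and EPHB2 was not called in any.

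Of 10 epithelial markers, 0 were called in PTPRK KO against WT (edgeR and DESeq2, with 6 at an unadjusted p under 0.05), 2 in PTPRK, 1 in PTPRK.RQ and 4 in PTPRK.C1089S against PTPRK KO, where 28.6%, 19.1% and 16.2% of all tested genes were. CDH1 (E-cadherin, the epithelial adhesion molecule) was called higher in all 3 and LGALS4, a galectin of the gut, lower in the first and the last. In PTPRK.C1089S tumours KRT20 was also called higher (0.49) and CDX1 lower (-1.32, log2). Against WT the counts were 2, 3 and 4, with LGALS4 lower in each, where 35.7%, 24.7% and 14.3% of genes were called. KRT8 was also lower in PTPRK (-0.28) and PTPRK.RQ tumours (-0.37), and KRT18 in PTPRK.RQ tumours (-0.40). In PTPRK.C1089S tumours CDX1 (-1.49) and CDX2 (-1.25) were lower and KRT20 (0.44) was higher. Their summed level ran from 17280 to 19600 CPM in WT, 14687 to 16833 in PTPRK KO, 13342 to 17503 in PTPRK, 13781 to 16996 in PTPRK.RQ and 14842 to 18544 in PTPRK.C1089S tumours. Of the 10 host markers tested, 3, 1 and 1 were called in the comparisons with PTPRK KO. In PTPRK tumours PECAM1 and CD68 (0.30) rose and ACTA2 fell (-0.51, log2). PECAM1, an endothelial adhesion molecule, was called higher in all 3 comparisons. Its mean was 1.97 CPM in WT, 1.19 in PTPRK KO, 4.47 in PTPRK, 4.85 in PTPRK.RQ and 3.22 in PTPRK.C1089S tumours. It was also called higher than WT in PTPRK and PTPRK.RQ tumours. VWF, another vessel marker with means of 0.0646 to 0.201 CPM, was not called. Its log2 fold changes against PTPRK KO were -1.17 in PTPRK, -0.10 in PTPRK.RQ and -0.17 in PTPRK.C1089S tumours. The vessel markers CDH5, KDR and TEK did not pass the filter. Without LYZ and CD68 the sum of the host markers was 14.2 to 20.3 CPM in WT, 8.93 to 18.7 in PTPRK KO, 15.3 to 21.3 in PTPRK, 14.6 to 31.2 in PTPRK.RQ and 19.1 to 25.8 in PTPRK.C1089S tumours. As counts of human genes in tumours grown in mice, the host markers do not measure host content. The part of these markers in the results for the Eph receptors and ephrins was not tested.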

How the data were processed

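The deposited RNA-seq values are raw counts per gene. Per the study's methods and the submitters' notes, they trimmed reads with trim_galore, mapped them with HISAT2 (2.1.0 in the notes, another version in the methods) to GRCh38 and separately to the mouse genome, and counted exon overlaps per gene in SeqMonk without regard to strand. Mouse reads could thus raise human counts where sequences are alike. Of 38179 rows, 51 repeated an identifier and were left out.

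Groups follow the labels. A legend of the study gives other group sizes for PTPRK and PTPRK.RQ xenografts, and its table of expression values holds no column for PTPRK replicate 6 or PTPRK.C1089S. All 25 tumours entered 1 fit in edgeR 4.0.16 (R 4.3.3): TMM, filterByExpr, robust quasi-likelihood test, 10 contrasts, Benjamini-Hochberg adjustment over 18823 genes and a threshold of 0.05. SE is the log2 fold change over the root of F. DESeq2 1.42.0 was an alternative. Totals ran from 43.7 to 59.4 M. Between tumours of 1 group, squared differences averaged 12.3 to 106 times the variance from counting alone (chi-square per gene), so the spread between tumours sets the precision. The fit was also run on simulated counts without an axis shared between genes, so that run cannot show how calls depend on such an axis.

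The members and gene lists were chosen with earlier results of these data known. Of each list, up to 3 called genes per direction were named for comparisons with PTPRK KO or WT, by smallest p, besides members. Gene positions are those of the deposited table. Protein and promoter sequences were not used here.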

Additional observations from a re-analysis of the deposited data

Results flagged for a closer look

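Of 50 groups of tumours examined (10 genes in 5 groups), 4 held 1 tumour apart from the others by Dixon's criterion, and chance alone gives about 1 in 20. EPHB4 was low in PTPRK KO replicate 2 (247 CPM, where the others had 309 to 329 CPM). EFNA1 was low in WT replicate 3 (48.1 CPM). EFNB1 was low in PTPRK.C1089S replicate 4 (189 CPM, where the others had 248 to 266 CPM). EFNB2 was high in PTPRK KO replicate 4 (92.3 CPM).

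PTPRK KO replicate 2 had an axis score of 0.31 and PTPRK.C1089S replicate 4 one of 1.87, the highest of their groups. Whether the axis has a part in these levels was not tested.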

How the results depend on the processing

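Of 104 single-gene fold changes, each under 32 alternatives, 3116 of 3328 fits kept direction and side of the threshold, 190 lost a call, 22 gained one and 0 changed sign. With the axis term, added after the data were seen, 0 members were called in PTPRK against PTPRK KO, 0 in PTPRK.C1089S against PTPRK, 0 in PTPRK against WT, 1 in PTPRK.RQ against WT and 2 in PTPRK.C1089S against PTPRK KO, and the 1 in PTPRK.RQ against PTPRK KO was EPHA1 in place of EPHB4. Without a filter on low counts, and with the tumours in the study's expression table alone (without PTPRK replicate 6 and, for the other comparisons, without PTPRK.C1089S tumours), 1 was called in PTPRK against PTPRK KO, 0 in PTPRK.RQ against PTPRK and 0 in PTPRK.C1089S against PTPRK. With only the groups compared, 0 were called in PTPRK.RQ against PTPRK. With a log2 fold change of at least 0.5, 0 were called for PTPRK or PTPRK.RQ against PTPRK KO, 0 for PTPRK.C1089S against PTPRK, and 1 each for PTPRK and PTPRK.RQ against WT. The cause was not tested, apart from the last, where 0.5 exceeds the values.

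Leaving out 1 tumour at a time gave 0 to 0 members called in PTPRK KO against WT, 1 to 2 in PTPRK, 1 to 1 in PTPRK.RQ and 0 to 3 in PTPRK.C1089S, each against PTPRK KO. Between constructs it gave 0 to 1 in PTPRK.RQ against PTPRK, 0 to 4 in PTPRK.C1089S against PTPRK and 0 to 1 in PTPRK.C1089S against PTPRK.RQ. Against WT it gave 3 to 3 in PTPRK, 2 to 3 in PTPRK.RQ and 1 to 1 in PTPRK.C1089S. Without PTPRK replicate 5, EPHA2, EPHB4 and EFNB2 were also called higher in PTPRK.C1089S than in PTPRK (adjusted p = 0.022, 0.029 and 0.038), and without PTPRK.C1089S replicate 4, EPHB4 was (adjusted p = 0.011). Without PTPRK.RQ replicate 1, the 1 called in PTPRK.RQ against PTPRK KO was EPHA2 (adjusted p = 0.024) in place of EPHB4 (adjusted p = 0.10). Over all genes, calls in PTPRK KO against WT numbered 377, beside 630 with DESeq2, 641 with only these groups, 610 with the axis term and 208 to 508 with 1 tumour left out. In PTPRK.C1089S against PTPRK they numbered 2493, beside 1303 with only these groups, 1631 with the tumours in that table, 369 with the axis term and 1005 to 5063 with 1 left out. In PTPRK.C1089S against PTPRK.RQ they numbered 928, beside 1402, 396 and 304 to 2422 (DESeq2, only these groups and 1 left out). The axis term gave 1648 in place of 5381 in PTPRK against PTPRK KO, 1104 in place of 636 in PTPRK.RQ against PTPRK, 256 in place of 6711 in PTPRK against WT and 1430 in place of 4640 in PTPRK.RQ against WT. Leaving out 1 tumour gave 338 to 853 in PTPRK.RQ against PTPRK, 2987 to 5476 in PTPRK.RQ against WT and 1696 to 2801 in PTPRK.C1089S against WT, where the count was 2693.

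Replicate numbers were not used to pair the tumours in the main fit. Over 46 pairs with the same number the correlation of deviations from group means was -0.20 to 0.39 (median 0.033), with 18 pairs over 0.1. Over 203 pairs with different numbers it was -0.48 to 0.40 (median -0.018), with 56 pairs over 0.1. Of 24 tumours, 8 correlated best with their own number. These values do not settle whether the numbers mark a block, and the labels do not say what they stand for. With the replicate number as a block, 1 member was called in PTPRK against PTPRK KO, 0 in PTPRK.RQ against PTPRK and 0 in PTPRK.C1089S against PTPRK. EPHA4 and EPHB2, with as few as 36 and 60 reads, are the members that depth limits most.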
